A study of Mus musculus with 6 samples.

Results

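The 8 Nlrp genes Nlrp4a, Nlrp4b, Nlrp4c, Nlrp4e, Nlrp9a, Nlrp9b, Nlrp9c and Nlrp14 of the mouse oocyte were followed across every group of the series. They were chosen by name as the NLRP genes of the oocyte that lie outside the subcortical maternal complex, and 8 of 8 were found both among 14165 genes counted in pools of oocytes and among 54658 genes counted in single oocytes. Polyadenylated RNA was sequenced from mouse oocytes at metaphase II (MII), the stage of arrest before fertilisation, by Smart-seq2, which copies and amplifies full-length cDNA. One sample held 59 single aged oocytes and another 35 single young oocytes, both untreated, each oocyte being a library. A further 4 samples, also labelled young, were pools of 10 oocytes, 2 of them given control short interfering RNA (siCtrl) and 2 given short interfering RNA against Plat (siPlat), the gene of tissue-type plasminogen activator. The labels gave no strain, no age in weeks and no animals, so the pools of a group may be technical repeats, and p-values measure only the spread between these pools.

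NLRP proteins carry a pyrin domain, a NACHT domain that binds nucleotide, and leucine-rich repeats. A few of them, such as NLRP3, are known as sensors that recruit the adaptor ASC (Pycard) and caspase-1 into an inflammasome. Another branch is expressed mainly in germ cells: NLRP5 is a core protein of the subcortical maternal complex, a store of maternal proteins beneath the egg membrane that early embryos need, and NLRP2 and NLRP4F are associated with it. Nlrp14 is a maternal gene needed in mice for early embryos to develop. Human NLRP4 is known for limiting type I interferon signalling through the kinase TBK1 and for binding Beclin 1, whereas the mouse has a family of Nlrp4 copies, and mouse Nlrp9b is known from the intestinal epithelium, where it senses viral RNA together with the helicase DHX9.

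The 8 genes are protein coding and lie on chromosome 7 (GRCm38, the assembly that mm10 names). From low to high coordinates they are Nlrp4c (chr7:6045161-6105150), Nlrp4b (chr7:10687789-10730168), Nlrp9b (chr7:19991465-20073306), Nlrp4e (chr7:23301192-23362277), Nlrp9c (chr7:26322473-26403700), Nlrp4a (chr7:26435113-26476142), Nlrp9a (chr7:26535023-26575615) and Nlrp14 (chr7:107166990-107198102). Nlrp9c is on the minus strand and the other 7 on the plus strand. Nlrp9c, Nlrp4a and Nlrp9a form a cluster with gaps of 31.4 and 58.9 kb, while Nlrp14 stands alone far along the chromosome. In their longest transcripts Nlrp4c and Nlrp4e were 92.8% identical over the aligned columns, Nlrp9a and Nlrp9c 88.0%, Nlrp9a and Nlrp9b 84.0%, and Nlrp9b and Nlrp9c 83.2%.

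Copies this close can take each other's reads, so the share of each longest transcript that recurs exactly in another gene was measured in 50-base windows. The share was 36.9% in Nlrp4e, mostly with the predicted gene Gm16443, and 11.9% in Nlrp4c, mostly with Nlrp4e. It was 6.54% in Nlrp9a, 6.22% in Nlrp9b, 4.99% in Nlrp9c and 3.04% in Nlrp4a, and 0 in Nlrp4b and Nlrp14. With 100-base windows it was 11.5% in Nlrp4e, 1.36% in Nlrp9b and below 1% in the others. The sources used here do not say how reads that map to several genes were counted, so the levels of Nlrp4e and Nlrp4c are uncertain, those of the Nlrp9 genes and Nlrp4a less so, and the sum over the 8 genes is given beside them. That sum does not recover reads exchanged with genes outside the 8, such as Gm16443, which shares 31.0% of the 50-base windows of Nlrp4e. The exons of Nlrp9b also overlap a processed pseudogene, Gm18877, on the same strand.

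The promoters are shown beside the levels because near copies of a gene can keep or lose a shared promoter sequence. RefSeq (GRCm38.p6) gave a window of 250 bases before to 50 bases after the start for 7 of the 8 genes, Nlrp14 being named only. The windows of Nlrp9a and Nlrp9c aligned over 227 columns, of which 216 were identical (95.2%), whereas the window of Nlrp9b gave no more than 14 aligned columns with that of Nlrp9a. The RefSeq start behind the Nlrp9b window lies inside the gene span given above, downstream of its first base, so that window and its motif counts do not describe the start of the longer annotation. The windows of Nlrp4b and Nlrp4c aligned over 282 columns with 209 identical (74.1%). The window used for Nlrp4a was as alike to both, with 229 of 304 columns identical to Nlrp4b (75.3%) and 210 of 282 to Nlrp4c (74.5%). Where a gene had several windows, the one most like another member's was used, so this likeness was in part selected. Another Nlrp4a window had only 16 of 19 aligned columns identical to Nlrp4b and 20 of 26 to Nlrp4c. The 250 bases before the start follow, read on the strand of the gene, with CCAAT or its reverse complement ATTGG in capitals.
Nlrp9a, chr7:26534773-26535022, plus strand: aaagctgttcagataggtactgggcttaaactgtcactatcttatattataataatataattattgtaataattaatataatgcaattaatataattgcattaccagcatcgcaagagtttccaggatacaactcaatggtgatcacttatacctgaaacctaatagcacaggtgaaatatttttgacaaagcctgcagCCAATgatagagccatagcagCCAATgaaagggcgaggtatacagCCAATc
Nlrp9c, chr7:26403701-26403950, minus strand: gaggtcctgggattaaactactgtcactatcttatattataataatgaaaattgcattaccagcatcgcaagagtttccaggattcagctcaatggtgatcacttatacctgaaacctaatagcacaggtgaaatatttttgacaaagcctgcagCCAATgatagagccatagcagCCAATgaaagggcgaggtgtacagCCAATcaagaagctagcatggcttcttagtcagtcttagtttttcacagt
Nlrp9b, chr7:20007773-20008022, plus strand: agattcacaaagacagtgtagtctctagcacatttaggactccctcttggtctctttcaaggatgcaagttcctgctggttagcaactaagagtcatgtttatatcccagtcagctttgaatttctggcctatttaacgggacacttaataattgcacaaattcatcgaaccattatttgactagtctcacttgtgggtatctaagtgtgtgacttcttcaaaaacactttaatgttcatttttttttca
Nlrp4b, chr7:10687543-10687792, plus strand: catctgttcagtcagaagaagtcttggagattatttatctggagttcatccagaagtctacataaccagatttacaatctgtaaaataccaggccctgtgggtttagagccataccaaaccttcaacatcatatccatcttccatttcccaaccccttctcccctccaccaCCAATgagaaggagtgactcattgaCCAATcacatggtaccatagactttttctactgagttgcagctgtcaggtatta
Nlrp4c, chr7:6044911-6045160, plus strand: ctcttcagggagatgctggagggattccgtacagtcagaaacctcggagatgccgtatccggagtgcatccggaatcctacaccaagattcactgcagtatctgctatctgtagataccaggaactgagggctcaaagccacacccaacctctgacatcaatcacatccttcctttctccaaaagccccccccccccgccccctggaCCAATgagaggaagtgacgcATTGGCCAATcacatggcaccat

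The CCAAT motif, searched as CCAAT on both strands, was in 6 of the 7 windows, against 37.4% of 32851 windows of all genes. With any window of a gene counted, it was in 41.1% of all genes. Member windows were picked for likeness where a gene had several, which the windows of all genes were not. Nlrp9a and Nlrp9c each held 3 copies, with first bases at -51, -30 and -6 from the start in Nlrp9a and at -95, -74 and -50 in Nlrp9c. Nlrp4c held 3, of which those at -23 and -18 adjoin on opposite strands, Nlrp4b held 2, Nlrp4a and Nlrp4e held 1 each, and Nlrp9b held 0. Of all windows 3.37% held 3 or more. The E-box form CAGCTG, searched on both strands, was in the windows of Nlrp4a, Nlrp4b, Nlrp4c and Nlrp4e and in no Nlrp9 window, against 16.3% of all windows; each CAGCTG is also a match to the general E-box CANNTG, which was in 7 of 7 windows and in 72.3% of all. The homeobox-type motifs TAATTG (Nlrp9a and Nlrp9b, 8.0% of all windows) and TAATTA (Nlrp9a, 5.29%) and the TATA-box form TATAAA (Nlrp9b, 13.6%) were searched in the same way. These matches describe letters in the windows and are not evidence of binding.

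The young single oocytes give the plain state of the 8 genes. A library held 5480050 to 11894782 gene counts there, and values are counts divided by the total of gene counts of the library and scaled to CPM (counts per 1e6). Divided by the length of the longest transcript, Nlrp14 stood first at 526 CPM per kb, which was 37.3% of the sum of the 8 genes per length. Nlrp9c followed at 238, Nlrp4a at 212 and Nlrp4b at 211 CPM per kb. Nlrp9a was at 114, Nlrp9b at 68.1, Nlrp4e at 32.6 and Nlrp4c at 7.0 CPM per kb. Nlrp14 was above Nlrp9c in 35 of 35 oocytes, while Nlrp9c exceeded Nlrp4a in 23 and Nlrp4a exceeded Nlrp4b in 18, so the order among those 3 is not firm. From Nlrp4b down each gene exceeded the next in 33 to 35 of 35 oocytes. With the union of all annotated exons as the length, Nlrp9c was in place 4 at 129 CPM per kb and Nlrp14 made up 41.7% of the sum.

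**Figure D1:**
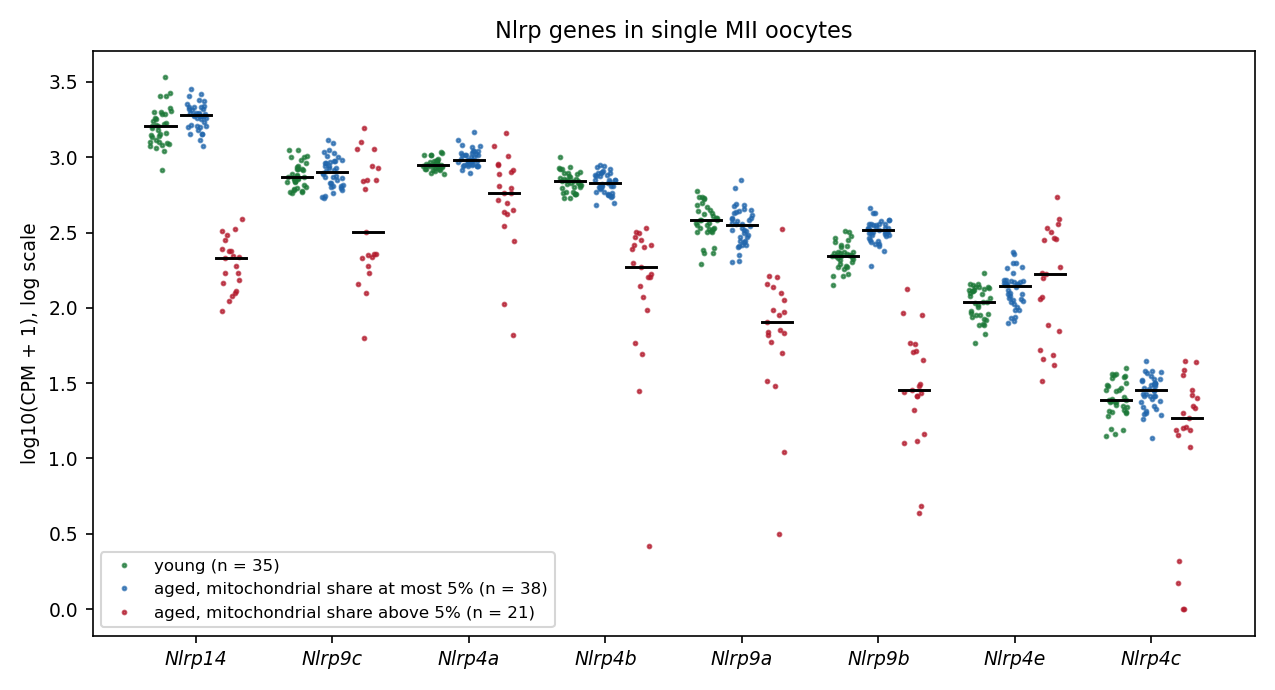
Levels of the 8 Nlrp genes in single MII oocytes as log10(CPM + 1), with 1 point per oocyte and a black bar at the median of 35 young oocytes, 38 aged oocytes with a mitochondrial share of at most 5%, and 21 aged oocytes above it. The Nlrp14 points of the last group lie below all points of the other groups, while the Nlrp4e points of the 3 groups overlap.

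In young oocytes Nlrp14 ranged from 827 to 3393 CPM with a median of 1603 CPM. Its coefficient of variation over oocytes was 31.2%, the widest of the 8. Nlrp4a, at 778 to 1086 CPM with a median of 884 CPM, was the most even, with a coefficient of variation of 8.56%. For comparison, 1981 genes of at least 100 CPM had a median of 17.5% and a lower quartile of 13.9%, so Nlrp4a varied less than most of these genes and Nlrp14 more than the upper quartile of 23.0%. Nlrp4b ran from 537 to 1011 CPM (median 691 CPM, 15.2%) and Nlrp4e from 57.4 to 170 CPM (median 108 CPM, 24.3%). Nlrp4c was the scarcest, at 13.1 to 38.6 CPM with a median of 23.4 CPM. Among the Nlrp9 genes, Nlrp9c ran from 581 to 1118 CPM (median 738 CPM, 19.5%), Nlrp9a from 196 to 599 CPM (median 380 CPM, 25.6%) and Nlrp9b from 141 to 321 CPM (median 221 CPM, 19.2%). The 8 genes together made 3198 to 7179 CPM (median 4699 CPM), and their sum had a coefficient of variation of 15%, above that of Nlrp4a and about that of Nlrp4b.

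Nlrp9a and Nlrp9c varied together across young oocytes, and Nlrp9b did not follow them. Pearson's r of log2(CPM + 1) was 0.89 for Nlrp9a with Nlrp9c, 0.13 for Nlrp9a with Nlrp9b and -0.12 for Nlrp9b with Nlrp9c over 35 oocytes. In 38 aged oocytes with a mitochondrial share of at most 5% the same pairs stood at 0.91, 0.16 and 0.04. The ratio of Nlrp9a to Nlrp9c counts had a median of 0.503 in young oocytes (range 0.333 to 0.585, coefficient of variation 12.5%) and of 0.431 in those aged oocytes (0.351 to 0.581, 11.8%), whereas the ratio of Nlrp9b to Nlrp9c varied by 26.7% in young oocytes. Nlrp9a and Nlrp9c are also the Nlrp9 pair closest in transcript (88.0%) and in promoter window (95.2%), while Nlrp9a shared more 50-base windows with Nlrp9b than with any other gene. The part of shared reads and that of promoter likeness in these correlations were not tested.

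**Figure D2:**
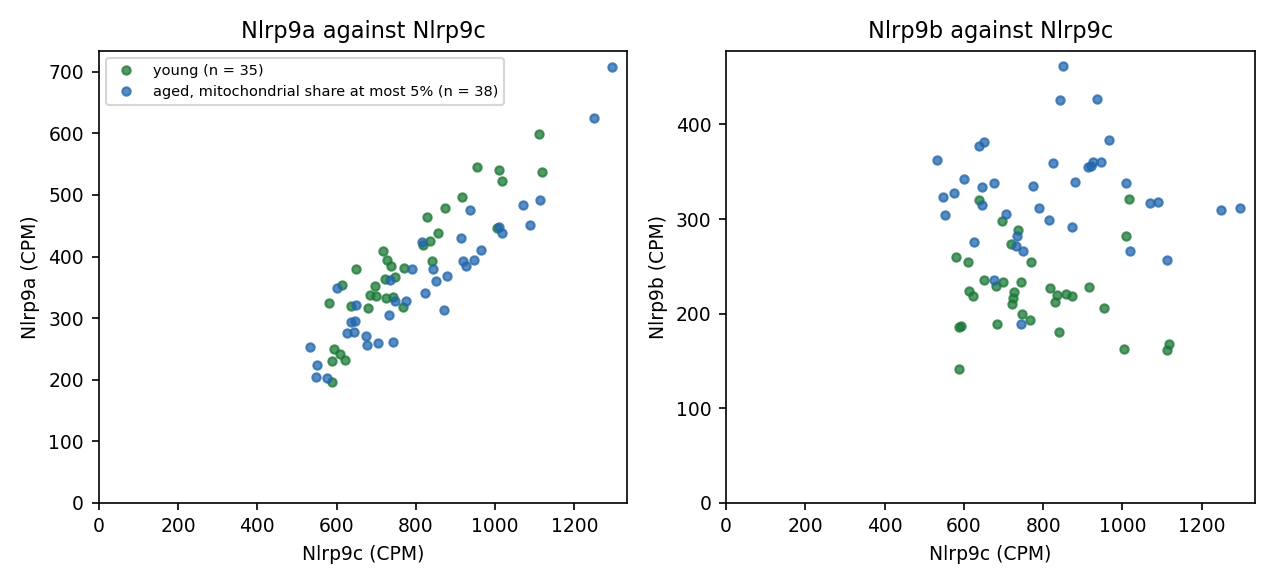
CPM of Nlrp9a (left) and of Nlrp9b (right) against CPM of Nlrp9c, with 1 point per oocyte, in 35 young oocytes and 38 aged oocytes with a mitochondrial share of at most 5%. The left points follow a line (r = 0.89 in young and 0.91 in aged oocytes) and the right points do not (r = -0.12 and 0.04).

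Nlrp9b instead varied with Nlrp14 (r = 0.70 in young and 0.50 in aged oocytes of at most 5%). Nlrp4c varied with Nlrp4b (0.63 and 0.49) and with Nlrp14 (0.60 and 0.47). Nlrp14 and Nlrp4c were set apart from Nlrp9a and Nlrp9c in the young oocytes only. Nlrp9b was apart from them in both groups. Nlrp4b was apart in neither, with r = 0.48 and 0.35 in young oocytes and 0.62 and 0.47 in those aged ones. With Nlrp9a and Nlrp9c, Nlrp14 had r = 0.24 and 0.08 in young oocytes but 0.64 and 0.51 in those aged ones. Nlrp4c had 0.16 and 0.07 with them in young oocytes but 0.64 and 0.66 in the aged ones. Nlrp4a had r = 0.02 with Nlrp4b and -0.07 with Nlrp4c in young oocytes. Against all other members in young oocytes r was between -0.07 and 0.40 for Nlrp4a and between -0.42 and 0.21 for Nlrp4e. The highest values of Nlrp4a were those with Nlrp9a (0.39) and Nlrp9c (0.40). Over all 28 pairs r ran from -0.42 to 0.89 in young oocytes (median 0.16, 22 pairs above 0) and from -0.10 to 0.91 in the aged ones (median 0.24, 27 above 0). The 2 values of a pair share a library and its depth, and depth moved with some of them: over young oocytes Nlrp14 had r = 0.60 with the total of gene counts and -0.55 with the mitochondrial share, Nlrp9b 0.43 and -0.52, Nlrp4c 0.50 and -0.41, while Nlrp4a had -0.13 and -0.05. The part of depth in the correlations was not tested.

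**Figure D3:**
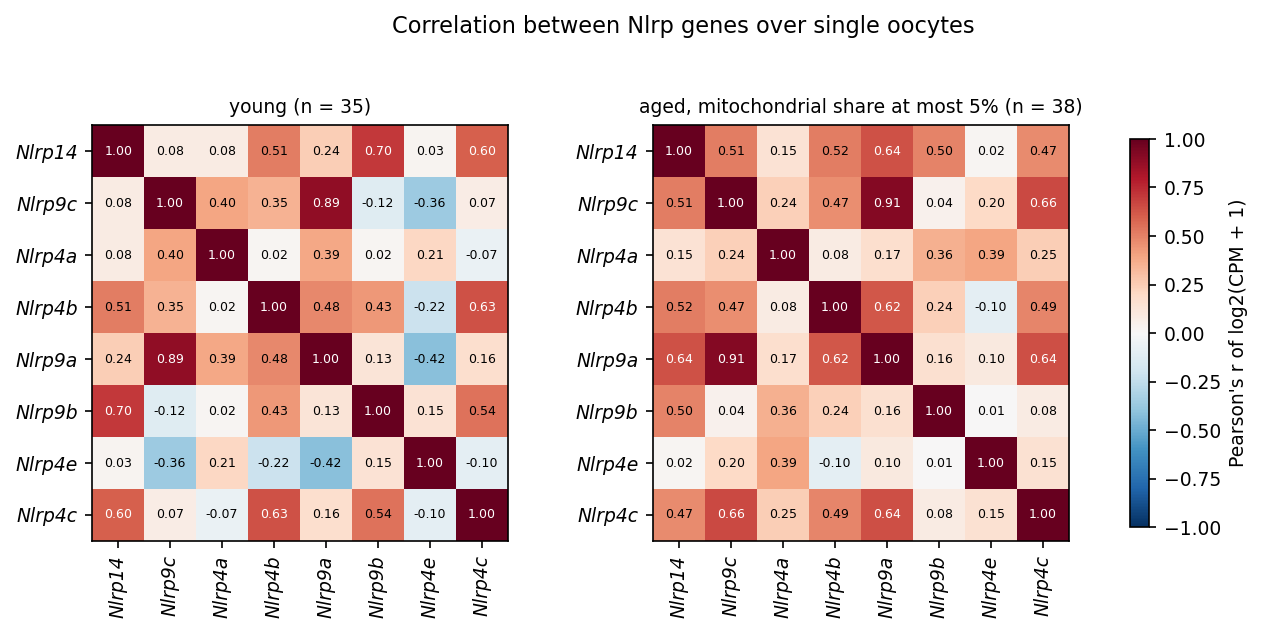
Pearson's r of log2(CPM + 1) between the 8 Nlrp genes over 35 young oocytes (left) and over 38 aged oocytes with a mitochondrial share of at most 5% (right), with red above 0 and blue below. Nlrp9a with Nlrp9c is the darkest pair in both, at 0.89 and 0.91.

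Among 8221 other genes of at least 5 CPM in young oocytes, the 5 most like the sum of the 8 genes were Haus3, a subunit of the augmin complex of the spindle (r = 0.86), Me1, the cytosolic malic enzyme (0.85), Nlrp5 (0.84), Serpini1, which encodes the tPA inhibitor neuroserpin (0.82), and Nlrp2 (0.82). In aged oocytes of at most 5% mitochondrial share they had r = 0.77, 0.81, 0.72, 0.75 and 0.70. The NLRP genes Nlrp5 and Nlrp2 of the maternal complex were thus among the 5, but Nlrp4f, which also belongs to the maternal complex list, had r = -0.07. Plat itself had 0.41. These are likenesses over libraries that also share depth, and Nlrp14, the largest member, weighs most in the sum.

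The partners of classical inflammasomes were nearly missing in the same oocytes. Over the 35 young oocytes Pycard was at 0.0132 CPM, Casp1 at 0.0297 CPM, Gsdmd, the pore-forming protein of pyroptosis, at 0.00989 CPM and Nlrp3 at 0.297 CPM. Aim2 and Mefv, which encode other sensors, had 0 counts. Of 10 inflammasome genes listed, 2 reached 5 CPM in young oocytes: Nek7, an NLRP3-binding kinase, at 37.8 CPM and Txnip, a thioredoxin-binding protein, at 1173 CPM. Of 17 NLR genes outside the oocyte branch, Nlrc4 (52.5 CPM), Naip1 (14.8 CPM) and Nod2 (7.91 CPM) reached it. Of genes named as partners of family members, Uhrf1, the reader of hemimethylated DNA, was at 645 CPM, Becn1 at 77.5 CPM, Tbk1 at 39.0 CPM and Dhx9 at 2.22 CPM, while Dtx4, a ubiquitin ligase that acts with human NLRP4, was at 0.148 CPM and Slc8b1, a mitochondrial sodium-calcium exchanger, at 0.0692 CPM.

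The first comparison asked whether the 8 genes differed with age, and it had 1 sample per age and therefore no test. All 59 aged oocytes together had a summed level of 4404 CPM (exact Poisson interval 4397 to 4411, counting error only) against 4836 CPM (4828 to 4844) in young ones, a log2 ratio of -0.13. The 8 ratios ran from -0.37 in Nlrp9a to 0.45 in Nlrp4e, beside a median of -0.07 over 8303 genes, and 3 were above 0, against 43.6% of all genes. No member reached 2-fold in either direction, against 2.47% of all genes at least 2-fold higher and 0.783% at least 2-fold lower. The oocytes of the ages overlapped in each of the 8 members, and 0% of all genes separated them in either direction. Scaled to nuclear gene totals the sum ratio was -0.01, since aged libraries held more mitochondrial counts.

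The aged libraries were of 2 kinds. Mitochondrially encoded genes took 6.78 to 61.6% of gene counts (median 32.8%) in 21 aged oocytes, 35.6% of the aged sample, and at most 2.97% in the other 38 and 1.92% in the young. In the 21 libraries 7385 to 13849 genes were detected, and in the other 38 the range was 14724 to 17623. They are given separately from here on, with a dividing line at 5%.

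In the 38 aged oocytes at or below 5% the family looked much as in young ones. The sum had a median of 5349 CPM (range 4012 to 7006 CPM), against 4699 CPM (3198 to 7179 CPM) in young oocytes, and the log2 ratio of pooled levels was 0.14 beside a median of 0.08 over 8413 genes. Of the 8 ratios 6 were above 0, against 59.8% of all genes. No member reached 2-fold, against 1.63% of genes at least 2-fold higher and 0.214% at least 2-fold lower, and each member's oocytes overlapped between the ages, where 0.119% of all genes were higher and 0% lower in every aged oocyte.

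The member farthest from the rest was Nlrp9b, at 189 to 462 CPM (median 325 CPM) in these aged oocytes against 141 to 321 CPM (median 221 CPM) in young ones. The pooled level was 327 CPM (interval 325 to 329) against 228 CPM (226 to 230), a log2 ratio of 0.52. The aged median lay above the highest young oocyte, and the groups overlapped between 189 and 321 CPM. Nlrp4e had a median of 139 CPM against 108 CPM and a ratio of 0.30, Nlrp14 a median of 1909 CPM against 1603 CPM and a ratio of 0.18, and Nlrp4a a median of 957 CPM against 884 CPM and a ratio of 0.15. Nlrp4c (0.13), Nlrp9c (0.12), Nlrp4b (-0.03) and Nlrp9a (-0.04) were nearer to 0. Scaled to ERCC spike-in counts, synthetic RNAs added to each lysate, all 8 ratios were negative, 6 of them by a change of sign. They lay between -0.88 in Nlrp9a and -0.32 in Nlrp9b with the sum at -0.70. That scaling also moved the median of all genes from 0.08 to -0.73. It divides by a single total per group and shifts all genes nearly alike, so places relative to the median tell nothing further. Whether the same amount of spike-in was added to each oocyte is not given in the sources used here.

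In the 21 aged oocytes above 5% some of the 8 genes were far lower and others were not. The sum was at 818 to 3941 CPM (median 1724 CPM), below all 38 other aged oocytes, and the pooled level was 1917 CPM (interval 1909 to 1926) against 5323 CPM (5314 to 5332), 2.78-fold lower or -1.47 on the log2 scale. The median over 8087 genes was -0.94, and -0.48 with mitochondrial counts left out of the total. Of the 8 members 4 were at least 2-fold lower, against 48.6% of all genes, and in 3 of them every oocyte lay below the other aged oocytes, against 16% of all genes. No member was at least 2-fold higher, against 8.06% of all genes, and none lay above in every oocyte, against 0.655%. The members' median ratio was -1.29.

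Nlrp14 was lowest relative to the other aged oocytes, at 94.8 to 385 CPM (median 214 CPM) against 1192 to 2820 CPM (median 1909 CPM), without overlap. Its log2 ratio was -3.22, or 9.31-fold lower. Nlrp9b followed, at 3.37 to 133 CPM (median 27.5 CPM) against 189 to 462 CPM, again without overlap, with a ratio of -3.08 or 8.47-fold lower. Nlrp4b was at 1.64 to 340 CPM (median 185 CPM) against 481 to 889 CPM, without overlap and with a ratio of -1.92. Nlrp9a, at 2.17 to 333 CPM (median 80.1 CPM) against 202 to 709 CPM, overlapped the other oocytes and had a ratio of -1.98.

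The remaining 4 members overlapped widely between the 2 kinds of aged oocyte. Nlrp4a ran from 64.9 to 1458 CPM (median 582 CPM) against 789 to 1473 CPM, a ratio of -0.67. Nlrp9c ran from 61.6 to 1570 CPM (median 318 CPM) against 533 to 1296 CPM (median 803 CPM). Its ratio was -0.58 from pooled counts but -1.33 from medians over oocytes, which is past 2-fold. Nlrp4c ran from 0 to 43.5 CPM (median 17.5 CPM) against 12.6 to 43.7 CPM, a ratio of -0.37; it had 0 counts in 2 oocytes, where 3 counts would have been 0.791 and 0.819 CPM. Nlrp4e was the one member with a higher pooled level, 192 CPM (interval 189 to 194) against 136 CPM (134 to 137), a ratio of 0.49, with single oocytes from 31.5 to 546 CPM against 78.6 to 234 CPM, so that its oocytes lay on both sides of the others.

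**Figure D4:**
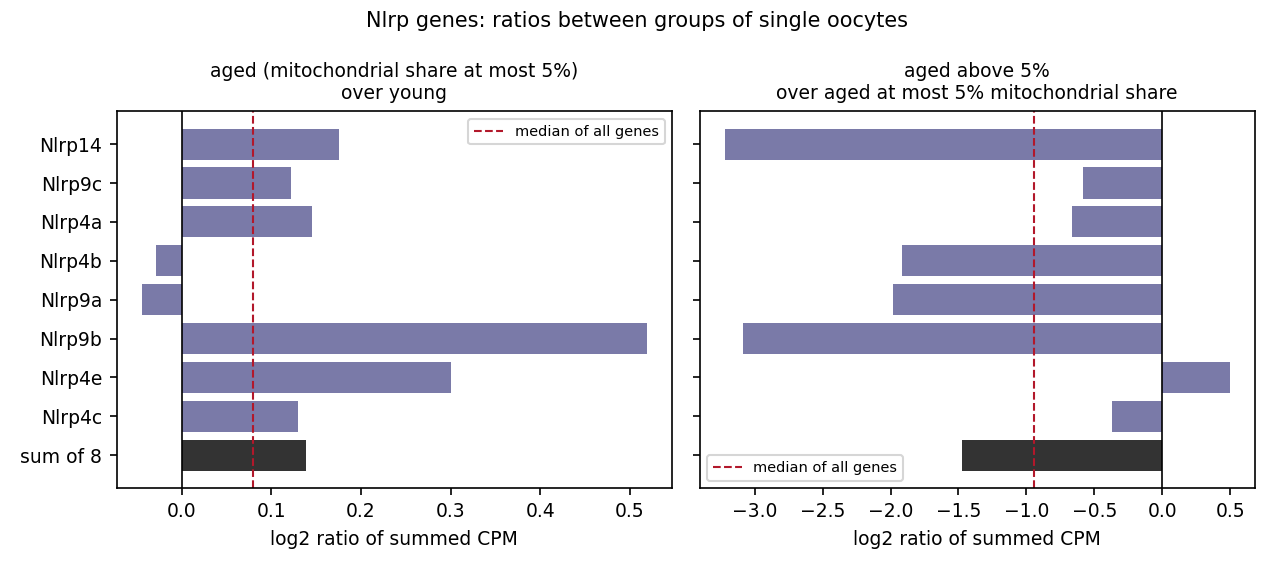
Log2 ratios of the summed CPM of each Nlrp gene and of the 8 together, for 38 aged oocytes of at most 5% mitochondrial share over 35 young oocytes (left) and for 21 aged oocytes above 5% over those 38 (right); the dashed line is the median of all genes at 0.08 and -0.94. The x axes differ in range. On the right the bars run from -3.22 in Nlrp14 to 0.49 in Nlrp4e.

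Scaling to nuclear gene totals, which leave out the mitochondrial counts, shifts the ratios of all genes by nearly the same amount. The order of the members was therefore all but fixed, and only the place of 0 could move. The sum was then at -0.98, Nlrp14 at -2.73, Nlrp9b at -2.61, Nlrp9a at -1.50 and Nlrp4b at -1.43. Nlrp4a (-0.18) and Nlrp9c (-0.09) came near 0, Nlrp4c changed sign to 0.10 and Nlrp4e was at 0.98. Scaled to ERCC counts, which again shifts all genes nearly alike, the median of all genes was -2.37, the sum -3.10, and Nlrp4e changed sign to -1.13.

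Per length of the longest transcript, the order of the members was different in these 21 oocytes. Nlrp9c came first at 173 CPM per kb (32.0% of the sum per length), then Nlrp4a at 147 (27.3%), and Nlrp14 in place 3 at 63.5 CPM per kb (11.8%). Nlrp4e (56.7) and Nlrp4b (54.6) followed, then Nlrp9a (27.8), Nlrp9b (11.3) and Nlrp4c (5.87 CPM per kb). The first place is not firm: with the union of exons Nlrp4a was at 130 and Nlrp9c at 93.8 CPM per kb, and the median over oocytes was also higher in Nlrp4a. Nlrp9a and Nlrp9c, so close in the other oocytes, parted here, with r = 0.44 and a ratio of their counts between 0.0100 and 2.21. Nlrp4a and Nlrp4e varied together (r = 0.85), with r = 0.21 in young oocytes and 0.39 in the other aged ones.

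Within the 21 oocytes a higher mitochondrial share went with a lower sum (Spearman's rho = -0.89, or -0.77 per nuclear total). Nlrp14 went the other way, with rho = 0.50 per gene total and 0.72 per nuclear total. Nlrp9c (-0.79 and -0.68) and Nlrp4e (-0.73 and -0.55) followed the sum, while Nlrp9b had -0.24 and 0.06. These rho values describe 21 libraries, and the share itself enters the CPM total. On the 2 sides of the 5% line, the oocyte of 2.97% had 1646 CPM of Nlrp14 and a sum of 5394 CPM, and that of 6.78% had 188 CPM of Nlrp14 and a sum of 2509 CPM.

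The same libraries were low in most oocyte markers. The summed level of 13 oocyte marker genes was 703 to 4769 CPM (median 3199 CPM) in these libraries. It was 14300 to 23228 CPM in the other aged and 14698 to 24092 CPM in the young oocytes. Of 12 markers of at least 5 CPM, 11 were at least 2-fold lower than in the other aged oocytes, against 48.6% of all genes. Dazl was not lower (1387 CPM against 1292 CPM). In the maternal complex list 5 of 7 genes of at least 5 CPM were at least 2-fold lower, against the same 48.6%. Their median ratio was -2.02, beside -0.94 over all genes, with Nlrp5 at -2.02, Nlrp2 at -1.26 and Nlrp4f at -0.01. Ooep (-4.52), Tle6 (-3.66) and Padi6 (-3.44) were lower without overlap, with ratios below that of Nlrp14 (-3.22). Zbed3, the most abundant, was higher (32142 CPM against 25635 CPM, a ratio of 0.33). The summed level of that list had a median of 33532 CPM in the 21 oocytes and 32537 CPM in the other aged ones. The partner genes Uhrf1 (37.6 CPM against 536 CPM) and Tbk1 (4.01 CPM against 35.4 CPM) were lower. Summed over 12 cumulus and granulosa markers the level was 0 to 32.6 CPM, 25.5 to 88.8 CPM in the other aged and 46.1 to 106 CPM in the young oocytes, with Amh, Amhr2, Foxl2 and Fshr at 0 counts in the young. Most of that sum was a single gene, Cyp19a1 (aromatase), at 70.3 CPM in the young, 65.1 CPM in the other aged and 6.51 CPM in the 21 oocytes. Summed over 10 blood and immune markers the level was 0 to 130 CPM, 3.82 to 19.1 CPM and 4.74 to 21.2 CPM in the same order. The medians were 2.63, 10.1 and 12.2 CPM. The largest pooled levels in the 21 oocytes were those of the globin genes Hba-a1 (7.95 CPM) and Hbb-bs (3.45 CPM). The part of other cells, of depth and of RNA quality in these differences was not tested.

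The second comparison asked whether depletion of Plat changed the 8 genes in pools of oocytes. Total gene counts were 12142884 to 17475952 per pool, and CPM values here are TMM-scaled. As a check of the knockdown, Plat had 441 and 439 CPM in siCtrl against 51.4 and 39.0 CPM in siPlat (log2 fold change -3.28, edgeR adjusted p = 6.21e-06). In pools, fewer intact oocytes and less RNA per oocyte cannot be told apart. By the quasi-likelihood test of edgeR, 1 of the 8 genes, Nlrp4c, fell (adjusted p under 0.05) and 0 rose, against 3.54% of 11136 tested genes called, 1.41% lower and 2.13% higher. Of the 8, 2 had an unadjusted p under 0.05, against 18.8% of all genes, and 4 were below 0, against 52.2%. Their median log2 fold change was -0.03, the same as that of all genes.

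Nlrp4c was at 28.1 and 30.0 CPM in siCtrl and at 14.4 and 13.4 CPM in siPlat, from 501 and 424 counts against 167 and 170. Both siPlat pools were below both siCtrl pools. It fell by 1.06 on the log2 scale (SE 0.23, 2.09-fold, edgeR adjusted p = 0.0304), and it was the scarcest of the 8 in every group. The call ended without siCtrl 1 (edgeR adjusted p = 0.137) and without siCtrl 2 (0.199), with log2 fold changes of -1.11 and -1.02; over all 9 other settings the adjusted p ran from 0.0101 to 0.199. Part of the Nlrp4c transcript recurs in Nlrp4e, which was at 285 and 277 CPM in siCtrl and at 263 and 264 CPM in siPlat (log2 fold change -0.09, SE 0.15, edgeR adjusted p = 0.812).

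Nlrp9c was the other gene with a low unadjusted p. It was at 1103 and 1022 CPM in siCtrl and at 1653 and 1387 CPM in siPlat, both siPlat pools being higher. The log2 fold change was 0.52 (SE 0.15, 1.43-fold) with an edgeR adjusted p = 0.0858, which did not pass. DESeq2 called it (adjusted p = 0.0245), as did edgeR without siPlat 2 (0.00475), while without siPlat 1 the fold change was 0.38 (edgeR adjusted p = 0.125) and over the 9 other settings the adjusted p ran up to 0.501. Nlrp9a, its companion in single oocytes, was at 555 and 553 CPM in siCtrl and at 647 and 655 CPM in siPlat (0.23, SE 0.14, edgeR adjusted p = 0.425). Nlrp9b was at 629 and 580 CPM in siCtrl and at 499 and 526 CPM in siPlat (-0.24, SE 0.15, edgeR adjusted p = 0.424). The pools did not overlap in either gene, Nlrp9a being higher and Nlrp9b lower in siPlat, and neither passed. In all, 3 members, Nlrp9a, Nlrp9c and Nlrp14, were higher in both siPlat pools without overlap, against 23.5% of all genes, and 3, Nlrp4c, Nlrp4e and Nlrp9b, were lower, against 25.8%.

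The fold changes of Nlrp14, Nlrp4a and Nlrp4b were no larger than their errors. Nlrp14 was at 2414 and 2531 CPM in siCtrl and at 2637 and 2657 CPM in siPlat (log2 fold change 0.10, SE 0.13, edgeR adjusted p = 0.761). Nlrp4a was at 1501 and 1550 CPM in siCtrl and at 1622 and 1498 CPM in siPlat, which overlap (0.03, SE 0.14, edgeR adjusted p = 0.942). Nlrp4b was at 447 and 398 CPM in siCtrl and at 403 and 361 CPM in siPlat, which overlap too (-0.14, SE 0.15, edgeR adjusted p = 0.685).

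The sum of the 8 genes was 6962 and 6941 CPM in siCtrl and 7739 and 7361 CPM in siPlat, or 6952 ± 15.2 and 7550 ± 268 CPM (SD, n = 2 pools per group), a log2 ratio of 0.12. Of raw gene counts the 8 genes took 0.720% in siCtrl and 0.726% in siPlat, a ratio of 0.01 on the log2 scale. The 2 scales differ by the TMM factors, which were 1.02 and 1.05 in siCtrl and 0.956 and 0.970 in siPlat. The Nlrp4 genes summed to 2258 ± 4.59 and 2219 ± 118 CPM (-0.02), and the Nlrp9 genes to 2221 ± 93.5 and 2684 ± 163 CPM (0.27).

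**Figure D5:**
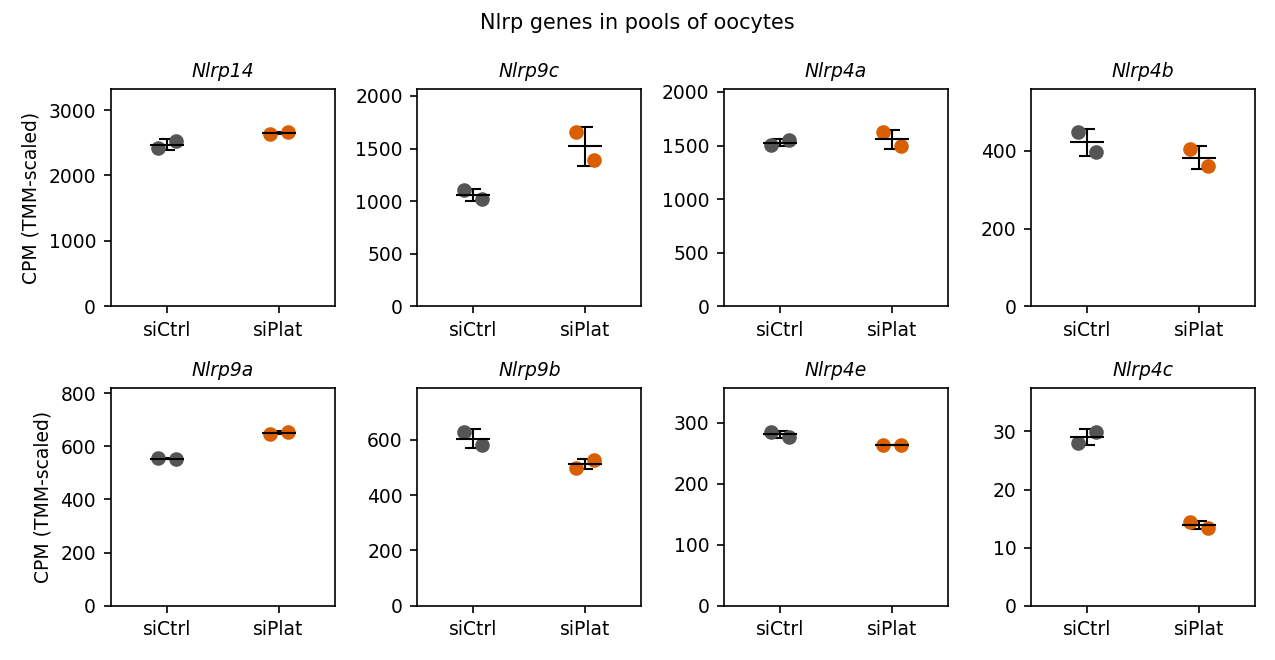
TMM-scaled CPM of the 8 Nlrp genes in each of 2 siCtrl and 2 siPlat pools of 10 oocytes (points), with the mean and its SD (bars); each panel starts at 0 and has its own range. Nlrp4c is the panel in which the siPlat points lie lowest relative to siCtrl (28.1 and 30.0 CPM against 14.4 and 13.4 CPM), and Nlrp9c that in which they lie highest.

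Per length, Nlrp14 led in siCtrl as in young single oocytes, at 756 CPM per kb and 37.6% of the sum, with Nlrp4a (358) and Nlrp9c (330) next and Nlrp4c last (8.02 CPM per kb). Nlrp9b (181) stood above Nlrp9a (166) and Nlrp4b (127) there, unlike in young single oocytes. In siPlat the share of Nlrp14 was 36.9%, and that of Nlrp9c was 21.6% against 16.4% in siCtrl. The tables of pools and of single oocytes were made separately, so no test was made across them.

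Among related genes, the maternal complex list had 2 of 8 tested members lower by edgeR, against 1.41% of all genes. These were Tle6 (-0.83, edgeR adjusted p = 0.0391) and Khdc3 (-1.17, edgeR adjusted p = 0.0427). The median of the list was -0.22, beside -0.03 over all genes. Both calls ended without siCtrl 2 (edgeR adjusted p = 0.399 and 0.323), and that of Khdc3 also without siPlat 1 (0.275) and siPlat 2 (0.358); with upper-quartile factors neither passed (0.05003 and 0.0552). The adjusted p over the 9 other settings ran from 0.00185 to 0.399 for Tle6 and from 0.000732 to 0.358 for Khdc3. Its NLRP members did not pass: Nlrp5 was at 359 and 389 CPM in siCtrl and at 261 and 221 CPM in siPlat (-0.63, edgeR adjusted p = 0.0574, called in 4 of 9 other settings), Nlrp2 was at -0.29 (0.446) and Nlrp4f at -0.07 (0.858). Of 17 NLR genes outside the oocyte branch 3 were tested, Nlrc4 (0.49), Naip1 (-0.84) and Nod2 (-0.04). Of 10 inflammasome genes 2 were tested, Nek7 (0.23) and Txnip (-0.26), and of 6 partner genes 4, Uhrf1 (-0.21), Dhx9 (-0.49), Tbk1 (-0.30) and Becn1 (-0.07). Of these 9 genes 0 passed by edgeR, DESeq2 or limma-voom, and 1, Nlrc4, had an unadjusted p under 0.05 by edgeR, against 18.8% of all genes. Summed cumulus and granulosa markers were at 23.4 and 30.9 CPM in siCtrl and 18.9 and 38.6 CPM in siPlat, and summed blood and immune markers at 8.12 and 8.41 CPM and 5.0 and 4.08 CPM. The 13 oocyte markers had a summed level of 17482 and 18183 CPM in siCtrl and 20211 and 17775 CPM in siPlat. Of them 8 had an unadjusted p under 0.05 by edgeR, against 18.8% of all genes. Their median log2 fold change was -0.35, beside -0.03 over all genes. By edgeR the growth factor gene Gdf9 (-0.84) and the zona pellucida gene Zp1 (-1.31) fell, against 1.41% of all genes. The RNA-binding protein gene Dazl (0.92) rose, against 2.13%. All 3 were named after their values were seen. These calls ended without siCtrl 1 for Gdf9 (edgeR adjusted p = 0.0667) and Dazl (0.117), without siCtrl 2 for Gdf9 (0.108) and Zp1 (0.162), and without siPlat 1 (0.161) or siPlat 2 (0.249) for Zp1. The part of these markers in the results on the 8 genes was not tested.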

How the data were processed

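Polyadenylated RNA was measured by Smart-seq2 in 94 single oocytes (2 samples) and 4 pools. Counts per gene, whole numbers and not normalized, were deposited by the authors in 1 table for the pools and 1 for the single oocytes. STAR 2.7.10b, HTSeq 0.13.5 and mm10 are named per the submitters' processing notes, with no role for each; the annotation, the strand setting and the treatment of multiply mapping reads are not stated there. Antisense and overlapping genes can therefore not be told apart. All oocyte and pool columns were used, and 0 of 94 oocyte columns were identical to another. The 92 ERCC rows stayed out of gene totals; the table of single oocytes held 37 mitochondrially encoded genes and that of pools 0.

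Pools were tested with edgeR 4.0.16 in R 4.3.3 (robust quasi-likelihood fit, TMM factors, default expression filter with a minimum count of 10 and total of 15, no covariate, Benjamini-Hochberg adjustment over 11136 genes, threshold 0.05). The SE is the log2 fold change divided by the square root of F. DESeq2 1.42.0, limma 3.58.1 (voom), upper-quartile factors, no filter, a replicate block and leaving out each pool were alternatives. The test was tested on simulated data.

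Each age of single oocytes was 1 sample, so counts were summed over oocytes, given as CPM with exact Poisson intervals (95%, counting error only; PCR reads without molecular identifiers are not independent), and compared as log2 ratios with a pseudocount of 1 CPM over genes averaging at least 5 CPM, with no test. Positions and transcripts came from GENCODE M21 (GRCm38), promoter windows from RefSeq (GRCm38.p6); where a gene had several windows, the one most like another member's was used. All 8 members were named, with genes of 4 related lists, the 5 genes most like the sum, and Plat. Members and lists were chosen with earlier results of these data known.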

Additional observations from a re-analysis of the deposited data

How the results depend on the processing

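In the pools, the number of called genes (394 by edgeR with all 4 pools) was 645 by DESeq2, and 157 to 1145 when 1 pool was left out; of the 8 Nlrp genes 1 was called, against 2 by DESeq2 (Nlrp4c and Nlrp9c) and 0 to 2 with 1 pool left out. Replicate numbers did not pair the pools (correlation of deviations -0.06 over 11136 genes); with the replicate number as a block 273 genes and 0 of the 8 were called, Nlrp4c having an edgeR adjusted p = 0.0595; among related genes the call of Khdc3 ended with it too (0.0727). The log2 ratio of the sum was 0.08 to 0.15 with 1 pool left out and 0.0103 per library total. Nlrp4a (0.03) ran from -0.0305 to 0.10 with 1 pool left out and turned negative without siPlat 1 (edgeR adjusted p = 0.943). The cause of these changes was not tested.

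In single oocytes the log2 ratio of the sum in all aged over young (-0.13) was -0.0107 per nuclear total, -0.23 with means and -0.0704 with medians over oocytes, and -1.62 per ERCC count. For aged oocytes of at most 5% mitochondrial share (0.14) these were 0.15, 0.19 with medians and -0.70 per ERCC count. For aged oocytes above 5% over the others (-1.47) they were -0.98, -1.44, -1.63 and -3.10, and -1.54 with the line at 10% (19 and 40 oocytes). A line at 3% gave the same oocytes. The share of Nlrp14 in the sum per length (37.3%) was 41.7% with the union of exons and 35.6% per count. By Spearman's rho 4 of the 5 genes most like the sum were shared. With 2 pools per group and 1 sample per age, differences between animals could not be measured.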
